A study of Homo sapiens with 2 samples.

Results

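The insulin-like growth factor (IGF) system was examined here in H1299 cells that had received the transcription factor EGR1. Its members were every probe set annotated to the ligand gene IGF2, the receptor genes IGF1R and IGF2R, or the binding-protein genes IGFBP1 to IGFBP7. This gave 35 probe sets for 10 genes, out of 49395 probe sets. Of the 10 genes, 9 are among the 18132 genes with a probe set of their own, and IGF2 is not, since its probe sets also carry a second symbol. The rule uses gene names and no measured value, although results of these data were known when it was written.

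H1299 is a long-established human line derived from a non-small cell lung carcinoma. Cells of one sample were transfected with the empty plasmid pcDNA3.1 and those of the other with the same plasmid carrying EGR1, with Lipofectamine 2000 in both, and RNA was collected after 48 hours. The plasmid backbone and the reagent were therefore common to both groups. The expression was transient, and the share of cells that took up the plasmid is not given in the sources used here. RNA from each sample was hybridised to 1 Affymetrix array, so there was no replicate, no p-value and no error between cultures, and each value below describes these 2 arrays alone. In bulk RNA, fewer cells expressing a gene and less RNA per cell cannot be told apart.

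IGF ligands bind the receptor tyrosine kinase IGF1R, which signals through insulin receptor substrates and the PI3K-AKT pathway to growth and survival. The IGF2 receptor, IGF2R, has no kinase and carries IGF2 to lysosomes for degradation. The IGF-binding proteins are secreted; they hold IGFs in the extracellular space, protect them and limit or deliver them to the receptors, and proteases release the ligand again. EGR1 is an immediate-early zinc-finger factor that binds GC-rich promoter sequences.

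The values are log2 levels made by RMA, which removes background, brings arrays to one distribution and combines the probes of each set into 1 value. Its scale is arbitrary, so a higher level of one gene than of another was not read as more RNA. Levels of different genes were set side by side only for the floor, for the markers and for genes near IGFBP6 in level. A difference is the log2 level in the EGR1 array minus that in the empty-vector array. The probe set with the highest mean stood for its gene, and readings with a mean under 5.22, the 40th percentile of all probe sets, were treated as dim (under the floor). Where a gene had several probe sets past the floor, their differences had a pooled SD of 0.15 (7113 genes), which covers probe-level error alone.

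The transfected gene was checked first. Of 6 EGR1 probe sets, 2 were higher in the EGR1 array: 11717861_a_at read 7.70 and 11.43 (3.73) and 11751643_x_at read 7.17 and 9.92 (2.76). The other 4 were lower, between -0.39 and -0.20, and they include the brightest, 11717860_a_at, at 10.51 and 10.12. By the rule used here for every gene EGR1 itself would thus read lower, at -0.39. Of the 7 markers of the labelled cell 5 were past the floor, with 3 above 0 and 2 below. VIM read 13.73 with empty vector and 13.66 with EGR1, KRT18 10.70 and 12.47, KRT8 7.97 and 9.97, KRT19 5.36 and 5.61, and KRT7 5.75 and 5.20. The epithelial surface genes EPCAM and CDH1 lay under the floor in both arrays. Lung differentiation markers were past the floor in 4 of 5 genes, at 6.57 or lower. Of all 18132 genes with a probe set of their own, 12652 were past the floor, so passing it is common. For fibroblast markers 1 of 5 genes was past the floor, for endothelial markers 3 of 5, for measured leukocyte markers 2 of 4 and for hepatocyte markers 3 of 4. On the linear scale the summed levels of these 4 lists in the empty-vector and EGR1 arrays were 146 and 138, 196 and 200, 361 and 396, and 246 and 254. A sum is led by the highest gene of its list. In the leukocyte list this was CD68, at 8.24 and 8.36. CD3E read 5.18 and 5.49, and PTPRC and CD14 were under the floor. RMA has no true zero, so none of these lists reached 0, and their part in the results was not tested.

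Within the IGF system a single gene, IGFBP6, differed by 2-fold or more between the arrays. IGFBP6 encodes a binding protein that prefers IGF2 to IGF1. Its level was 6.03 with empty vector and 7.18 with EGR1, a difference of 1.14, or 2.21-fold higher. The other 9 genes lay between -0.14 and 0.46 by their brightest probe sets. IGFBP3 was the next highest at 1.38-fold, and IGF2 followed at 1.25-fold. No member was 1.5-fold or more lower.

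Of the 7 members past the floor, 1 was at or beyond 1.5-fold higher and the same 1 was at or beyond 2-fold higher. In the background of 12652 genes past the floor, 0.941% were higher by 1.5-fold or more and 0.229% lower by as much; for 2-fold the shares were 0.348% higher and 0.0079% lower. The median difference was 0.04 over all 10 members and 0.05 over the 7 past the floor, against -0.02 over all genes past the floor. A set of 7 genes is too small for its share to be set closely against these percentages. Of the 35 member probe sets 24 were above 0, 10 below and 1 was equal, against 45.9% above 0 among all probe sets. Dim probe sets made up 18 of the 35, and among genes under the floor 54.5% were above 0. The probe sets of a gene are also not independent. By gene, 5 of the 7 members past the floor were above 0 and 2 below, against 44.6% above 0 among all genes past it.

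**Figure D1:**
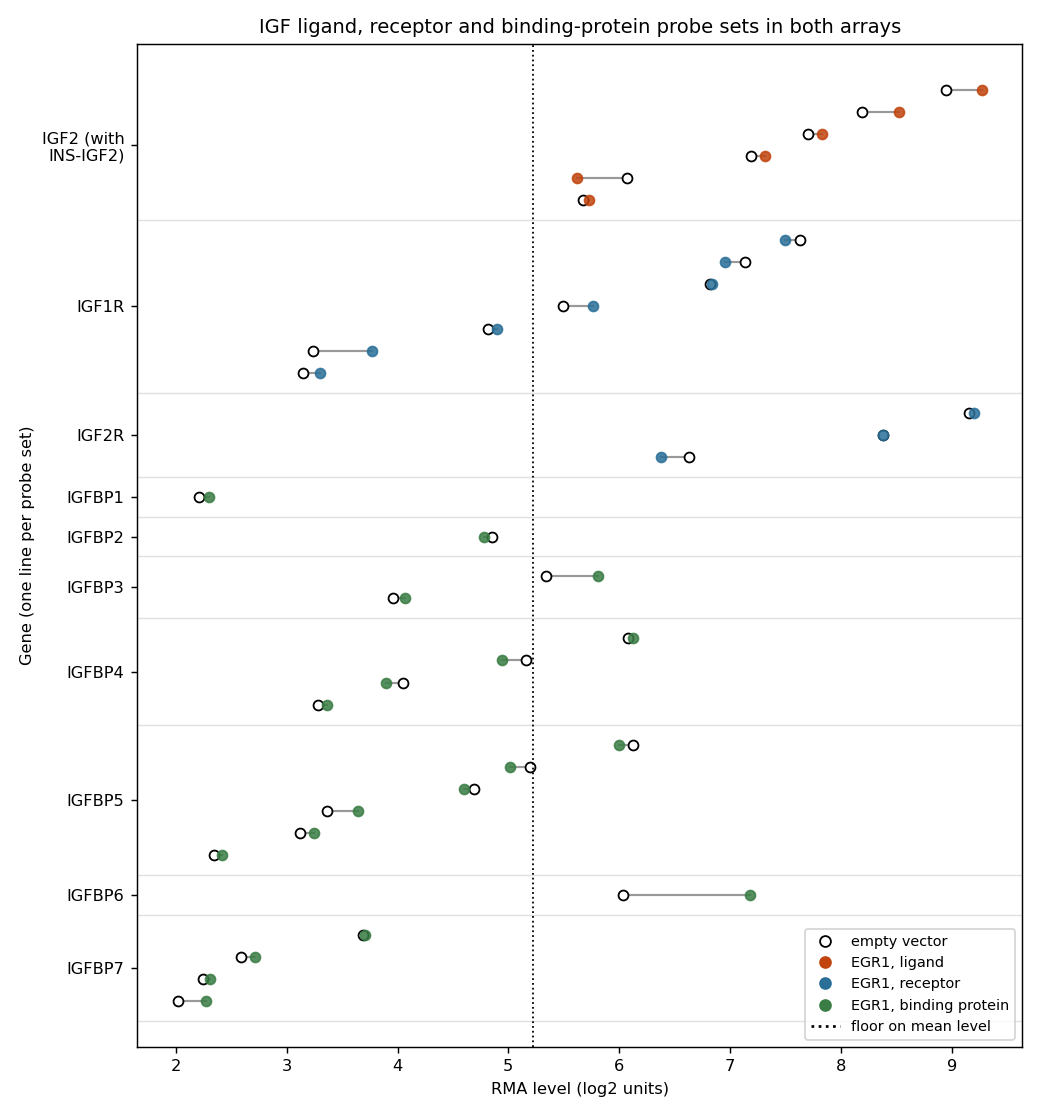
RMA level (log2 units, horizontal axis) of each of the 35 probe sets in the empty-vector array (open circles) and the EGR1 array (filled circles, coloured by role), one line per probe set, grouped by gene; the dotted line is the floor of 5.22 on the mean level. The pair of circles of IGFBP6 lies 1.14 apart, and no other pair is more than 0.54 apart.

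The ligand gene IGF2 showed a small difference, with 5 of its 6 probe sets above 0 but of unlike size. IGF2 is an imprinted fetal growth factor. All 6 of its probe sets are also annotated to INS-IGF2, a read-through transcript with the neighbouring insulin gene, so the values belong to both, and for that reason IGF2 is not among the 12652 genes of the background. The brightest, 11739787_a_at, read 8.95 with empty vector and 9.27 with EGR1 (0.33). The next, 11756003_x_at, read 8.19 and 8.52 (0.33). These are the largest upward differences of the gene.

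Of the remaining IGF2 probe sets, 11739786_s_at read 7.70 and 7.83 (0.13), 11753726_s_at 7.19 and 7.32 (0.13) and 11758400_s_at 5.67 and 5.73 (0.06). Probe set 11742637_s_at went the other way, with 6.07 with empty vector and 5.62 with EGR1 (-0.45). The SD between the 6 probe sets was 0.29, about as large as the difference of the brightest and above the pooled SD of 0.15. The mean difference over all 6 was 0.09, so the size of the IGF2 difference rested on the choice of probe set. A probe set annotated to INS-IGF2 alone read 4.99 and 4.84, both under the floor. IGF2 lies in the imprinted cluster of 11p15 and is also a member of that group of genes.

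The signalling receptor gene IGF1R had no settled direction. Its brightest probe set, 11718705_at, read 7.63 with empty vector and 7.49 with EGR1 (-0.14), and 11757745_s_at read 7.14 and 6.95 (-0.19). Another, 11718706_s_at, read 6.81 and 6.84 (0.03), and 11718704_at read 5.49 and 5.76 (0.27). Past the floor the probe sets therefore lay on both sides of 0, the brightest 2 slightly lower and the dimmest higher.

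The other 3 IGF1R probe sets were under the floor and were all above 0. They included 11718707_a_at, which read 3.24 and 3.77; its difference of 0.54 was the largest of any member other than IGFBP6 and rests on a dim signal. Averaged over all 7 probe sets, the IGF1R difference turned from -0.14 to 0.11 (SD 0.25 between probe sets).

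IGF2R, which clears IGF2 and also sorts enzymes tagged with mannose-6-phosphate, was nearly level. Its brightest probe set, 11716129_at, read 9.15 with empty vector and 9.20 with EGR1 (0.05). Probe set 11716128_at read 8.38 in both, identical to the last digit, as were 5.29% of all probe sets. The third, 11753961_a_at, was lower, at 6.63 and 6.38 (-0.25). The mean of the 3 was -0.07 and the SD between them 0.16, so the sign of IGF2R depended on the probe set.

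IGFBP6 was measured by 1 probe set, 11717909_at, so its difference has no second probe set beside it. Both readings lay above the floor, by 0.81 with empty vector and 1.95 with EGR1. Passing the floor does not show that a gene is expressed. With empty vector the hepatocyte markers ALB, TTR, APOA1 and F2 read 4.58, 5.85, 6.21 and 6.51. The IGFBP6 reading of 6.03 in that array lay among them. The IGFBP6 difference was 7.73 times the pooled SD between probe sets of one gene. That SD covers probe-level error alone and no variation between cultures, so the ratio is not a test. By its difference IGFBP6 ranked number 32 among the 12652 genes past the floor, with 31 genes higher. A difference of 2-fold or more upward was seen in 0.483% of the 3310 genes past the floor that also had 1 probe set, and in 0.471% of the 2762 genes whose mean level lay within 0.5 of that of IGFBP6 (6.60).

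**Figure D2:**
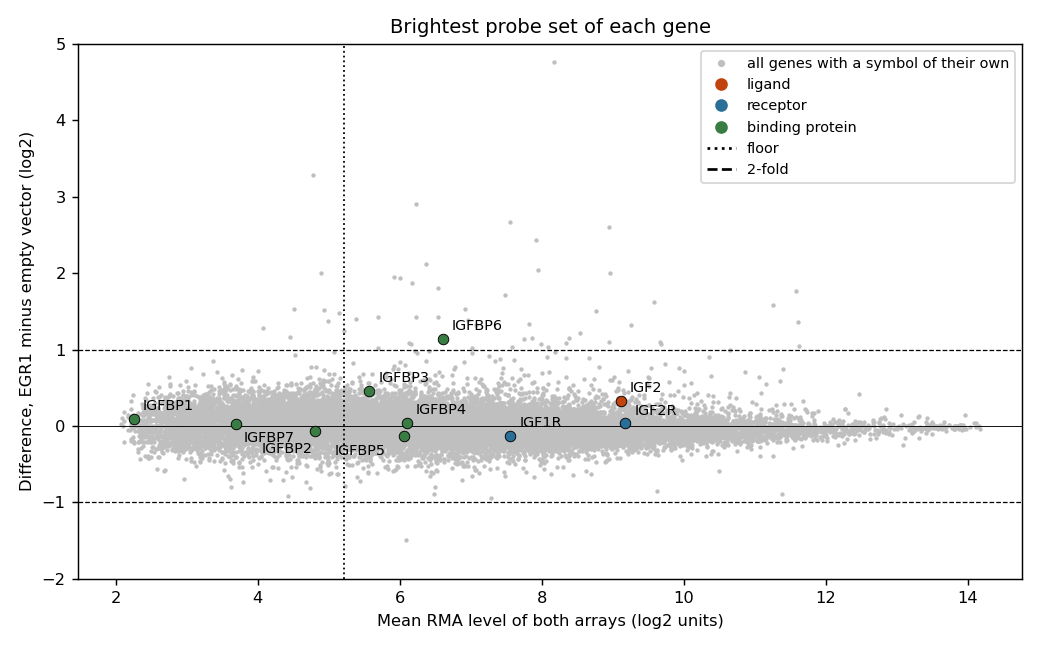
Difference between the arrays (EGR1 minus empty vector, log2, vertical axis) against the mean RMA level of both (log2 units, horizontal axis) for the brightest probe set of each gene; grey points are all genes with a probe set of their own and coloured points the 10 IGF system genes, with the floor dotted and 2-fold dashed. IGFBP6 lies above the 2-fold line at 1.14, and the other 9 lie inside the band of grey points, from -0.14 to 0.46.

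IGFBP3, the main carrier of IGFs in blood and a growth-restraining protein in many cultured cells, was the second highest member. Its brightest probe set, 11721135_s_at, read 5.34 with empty vector and 5.80 with EGR1 (0.46), just above the floor in the first. Of the genes past the floor 98.3% had a lower difference. The other probe set, 11749912_x_at, was dim at 3.95 and 4.07 and differed by 0.12. Both were above 0, but the mean over them was 0.29, and neither reached 1.5-fold.

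IGFBP4, which mainly inhibits IGF action until it is cleaved by the protease PAPPA, was level. Its brightest probe set, 11715464_x_at, read 6.08 with empty vector and 6.12 with EGR1 (0.04). The other 3 probe sets were under the floor, between -0.22 and 0.08, and the mean of all 4 was -0.06. IGFBP5, a binding protein that attaches to extracellular matrix, was slightly lower by its brightest probe set, 11728656_at, with 6.12 and 5.99 (-0.13). The other 5 IGFBP5 probe sets were under the floor, from -0.18 to 0.28, and the mean of all 6 was 0.01. Neither gene had a second probe set past the floor.

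The remaining 3 binding proteins were under the floor in both arrays, so a difference could not be read with any firmness. IGFBP1, which is made chiefly by liver and decidua, read 2.20 and 2.30 by its 1 probe set. IGFBP2, a binding protein common in fetal tissue and tumours, read 4.85 and 4.78 by its 1 probe set. IGFBP7, a related protein with low affinity for IGFs, had 4 probe sets, of which the brightest read 3.69 and 3.71. All 4 were above 0, between 0.02 and 0.26, and the largest of these belonged to the dimmest, at 2.02 and 2.28. Among genes under the floor 54.5% were above 0, against 44.6% past it.

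Promoter sequences of 7 of the 10 genes were found by symbol in RefSeq windows of 250 bases before to 50 after a transcript start (GRCh38.p14), 9 windows in all. No binding data were collected, and the values carry no genome build; the windows serve only to show which letters lie there. The 250 bases before the start are shown for IGFBP6 and IGFBP3, the highest members, and for IGFBP5, the lowest binding protein past the floor. They are written 5′ to 3′ on the gene's strand, with matches to the GC-box core GGGCGG (either strand, CCGCCC when reversed) in capitals.
IGFBP6 chr12:53097417-53097666 (+): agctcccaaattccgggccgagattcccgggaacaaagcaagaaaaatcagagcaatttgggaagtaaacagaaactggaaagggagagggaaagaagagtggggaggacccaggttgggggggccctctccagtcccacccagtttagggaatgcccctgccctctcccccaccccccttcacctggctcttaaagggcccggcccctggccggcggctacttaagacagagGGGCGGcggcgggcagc
IGFBP3 chr7:45921273-45921522 (-): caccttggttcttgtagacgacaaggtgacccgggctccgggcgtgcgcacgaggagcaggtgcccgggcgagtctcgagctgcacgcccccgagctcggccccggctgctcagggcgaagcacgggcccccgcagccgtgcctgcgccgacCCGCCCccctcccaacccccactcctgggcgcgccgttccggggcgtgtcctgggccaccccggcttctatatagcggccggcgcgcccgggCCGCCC
IGFBP5 chr2:216695550-216695799 (-): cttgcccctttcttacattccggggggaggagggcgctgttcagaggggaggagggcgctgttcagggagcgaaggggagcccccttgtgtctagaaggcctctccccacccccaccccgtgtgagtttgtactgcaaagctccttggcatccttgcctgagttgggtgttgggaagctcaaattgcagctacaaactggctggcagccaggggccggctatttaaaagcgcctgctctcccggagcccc

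GGGCGG was found once in the IGFBP6 window, starting 17 bases before the start, and 2 times in that of IGFBP3, but not in that of IGFBP5. Over all members it was in 7 of the 9 windows and, in the 35116 RefSeq windows of the same length, in 45.0%. The EGR1-type motif GCGNGGGCG, on either strand, was in none of the IGFBP6, IGFBP3 or IGFBP5 windows. It was in 1 member window, that of IGF2R, where it overlapped a GGGCGG match, and in 9.43% of all windows. The TATA-type motif TATAAA was in the IGFBP4 window and in 11.5% of all. A match is a stretch of letters and not a binding site.

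Genes that regulate the ligand or act downstream of its receptor were then examined. Across 5 lists of regulators and signalling genes, 57 of 62 listed genes had a probe set of their own, and 52 were past the floor. None of the 52 was at or beyond 1.5-fold in either direction, against 0.941% higher and 0.229% lower among all genes past the floor. Of these 52, 23 were above 0 and 29 below, with a median of -0.03. Among all genes past the floor 44.6% were above 0 and the median was -0.02, so the lists did not stand apart. With 1 array per group no test stands behind these counts.

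Extracellular regulators comprise ligands, carriers, proteases, their inhibitors and the CCN proteins. By their brightest probe sets these genes lay within 0.18 of 0, with a median over all measured of -0.04. Of 13 measured, 11 were past the floor, 4 of them above 0 and 7 below. The metalloproteinase ADAM12 had a difference of -0.18, the protease HTRA1 -0.17, the matricellular protein CCN2 -0.17 and IGFBPL1, a binding-protein-like gene, -0.16. The ADAM12 probe sets ranged from -0.18 to 0.29. Both IGFBPL1 probe sets, both HTRA1 probe sets and all 3 of CCN2 were below 0. Those of CCN2 ran from -0.28 to -0.17, so its brightest showed the smallest difference. IGF1, named outside the rule because it is the second ligand, read 5.32 and 5.47 (0.15), close to the floor.

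Among related receptors and adaptors IRS1, the docking protein that links IGF1R and the insulin receptor to PI3K, was the highest. It read 8.57 with empty vector and 9.04 with EGR1, a difference of 0.47 (1.38-fold), and its 3 probe sets ranged from 0.21 to 0.47. The adaptor SHC1 had a difference of 0.27 (0.03 to 0.33 over 4 probe sets), the inhibitory adaptor GRB14 -0.26 (both probe sets below 0) and the exchange factor SOS2 -0.21. In this list 9 of 12 genes were past the floor, with 4 above 0 and 5 below.

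All 23 measured genes of the PI3K-AKT-FOXO-mTOR list were past the floor, 10 above 0 and 13 below, with a median of -0.03. FOXO1, a transcription factor that AKT keeps out of the nucleus, read 6.07 and 6.52, a difference of 0.45 (1.37-fold), and its 4 probe sets ranged from 0.04 to 0.45. The kinase MTOR had a difference of -0.26 with all probe sets below 0, the phosphoinositide phosphatase INPPL1 0.23, and FOXO4 0.22. The INPPL1 probe sets ranged from -0.01 to 0.23 and those of FOXO4 from -0.02 to 0.22. None of these reached 1.5-fold.

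The IGF2 mRNA-binding proteins IGF2BP1, IGF2BP2 and IGF2BP3 had differences of 0.07, 0.07 and 0.14 by their brightest probe sets, and all lay well above the floor, with levels between 9.42 and 10.76. Other probe sets had the opposite sign: those of IGF2BP1 ranged from -0.11 to 0.08 and those of IGF2BP3 from -0.20 to 0.14, and both of IGF2BP2 were above 0. In the mannose-6-phosphate list, which holds sorting partners of IGF2R and the enzyme that makes its tag, 2 of 6 genes were above 0 and 4 below. The adaptor GGA3 had a difference of 0.40, GGA1 0.20, GGA2 -0.23 and GNPTAB -0.15. The GGA3 probe sets ranged from -0.18 to 0.40 and those of GGA1 from -0.18 to 0.20, while all of GGA2 and GNPTAB were below 0.

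**Figure D3:**
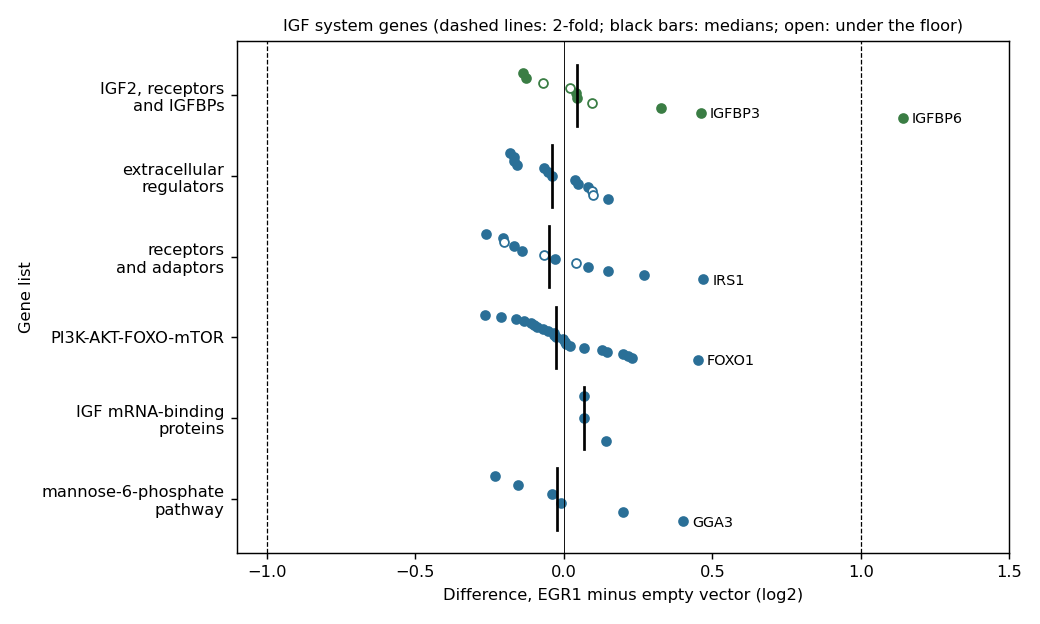
Difference between the arrays (EGR1 minus empty vector, log2, horizontal axis) for the 10 IGF system genes and the measured genes of 5 lists, by the brightest probe set; filled points are past the floor, open points under it, black bars are list medians and dashed lines 2-fold. IGFBP6 is the only point beyond 2-fold, and the highest points after it are IRS1 at 0.47, IGFBP3 at 0.46 and FOXO1 at 0.45.

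IGFBP6 lies on chromosome 12 beside the type II keratin cluster, and the genes around it were set side by side because KRT8 and KRT18 lie there too. This window was chosen after values of these genes were known. In RefSeq order, KRT8 and KRT18 are the fifth and the fourth measured protein-coding gene before IGFBP6. KRT8 read 7.97 with empty vector and 9.97 with EGR1 (2.00), and KRT18 differed by 1.76. These brightest probe sets carry the suffix _x_at and can bind similar transcripts. All 8 KRT8 probe sets were higher, from 1.32 to 2.00, as were both of KRT18, at 1.73 and 1.76. The 3 measured genes that lie between KRT18 and IGFBP6 did not share this size of difference: EIF4B differed by -0.12, TNS2 by 0.31 and SPRYD3 by 0.23.

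On the other side SOAT2, under the floor, differed by 0.34 and CSAD by -0.21. Of the 28 measured neighbours, 14 on each side, 19 were past the floor, and of these 13 were above 0 and 6 below with a median of 0.11, against 44.6% above 0 among all genes past the floor. KRT8 and KRT18 were the 2 neighbours past the floor at or beyond 1.5-fold higher, a size reached by 0.941% of all genes past it, and the window was drawn to include them. KRT8 and KRT18 are next to each other among the measured genes, and IGFBP6 is set apart from the pair by the 3 genes between. The other keratins on that side went both ways: past the floor KRT4 differed by 0.08 and KRT79 by 0.23, and under it the values ran from -0.31 for KRT2 to 0.15 for KRT76.

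**Figure D4:**
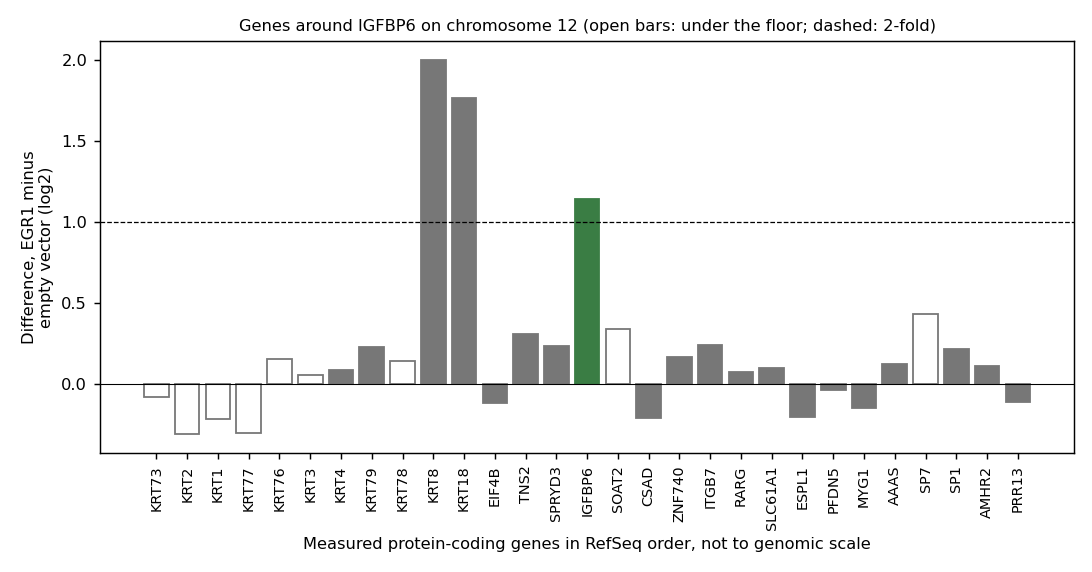
Difference between the arrays (EGR1 minus empty vector, log2, vertical axis) for IGFBP6 (green) and its 14 measured protein-coding neighbours on each side, in RefSeq gene order and not to genomic scale; open bars are genes under the floor and the dashed line is 2-fold. KRT8 (2.00), KRT18 (1.76) and IGFBP6 (1.14) pass the line, and the genes between them do not.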

How the data were processed

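Total RNA (2 µg) of 1 empty-vector and 1 EGR1 sample was hybridised to Affymetrix arrays, per the labels' protocols. The authors deposited log2 levels per probe set, made with RMA per the submitters' processing notes; which software was used, and on how many arrays at once, is not stated there. Names came from the platform annotation, with symbols updated by Entrez ID from RefSeq (GRCh38.p14). Of 49395 probe sets, 102 were controls and stood for no gene, 44988 had 1 gene symbol, 1832 several and 2473 none; 44961 matched RefSeq. Differences were computed without further normalization (Python 3.11.15, pandas 2.3.3). With 1 array per group nothing was tested, and the number of arrays limits the precision. The scripts were tested on simulated data. All members were described, with up to 4 genes past the floor per list by absolute difference; ties went by identifier order. Other genes are said to be outside this rule. Members and lists were chosen with earlier results of these data known. H19, listed as a neighbour of IGF2, is not analysed here.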

Additional observations from a re-analysis of the deposited data

How the results depend on the processing

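The member differences, counts and median and the counts of the pathway lists were recomputed with the mean of all probe sets, without _x_at and _s_at probe sets, after a lowess correction, after quantile normalization, without a floor and with a floor at the 60th percentile. The number of members at or beyond 1.5-fold and at or beyond 2-fold was 1 under all 6, and no gene of the 5 pathway lists reached 1.5-fold under any of them. IGFBP6 ranged from 1.14 to 1.15, and the median over the members from 0.04 to 0.09. IGFBP6 has 1 probe set with neither suffix, and its mean level lies above both floors. Only the lowess correction and the quantile normalization could therefore change its value, which was 1.15 in both. Under the other settings its value was fixed in advance, and the counts of 1 rest on this gene. When all probe sets of a gene were averaged, the differences of IGF2 (0.09), IGF1R (0.11) and IGFBP3 (0.29) moved by more than the pooled SD between probe sets, and the signs of IGF1R, IGF2R (-0.07), IGFBP4 (-0.06) and IGFBP5 (0.01) turned. IGFBP7 became -0.004 after the lowess correction. IGFBP1 and IGFBP3 have no value without _x_at and _s_at probe sets. No replicate could be left out. No paired analysis was possible because each group has 1 sample.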

Other observations

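Tensins, which link integrin tails to actin filaments, lie beside IGF-binding-protein genes on 4 chromosomes, and were looked at after their values had been seen. In RefSeq order among measured protein-coding genes, TNS3 is next to IGFBP3 and TNS4 next to IGFBP4, while TNS2 and TNS1 are each 2 genes from IGFBP6 and IGFBP5. All 4 tensin genes were above 0 by their brightest probe sets and past the floor, and none reached 1.5-fold. Among all genes past the floor 44.6% were above 0, and 0.941% were higher by 1.5-fold or more. TNS3 read 5.22 with empty vector and 5.65 with EGR1 (0.43), close to the 0.46 of IGFBP3, and 1 of its 3 probe sets was past the floor. TNS2 read 5.97 and 6.28 (0.31), TNS1 5.76 and 5.96 (0.20) and TNS4 5.62 and 5.76 (0.14). The binding-protein genes beside these differed by 1.14 (IGFBP6), -0.13 (IGFBP5) and 0.04 (IGFBP4), so the other pairs were less alike. No tensin probe set was below 0: the 6 of TNS1 ranged from 0 to 0.38, the 3 of TNS3 from 0.09 to 0.43, and the 2 of TNS4 from 0.09 to 0.14, and TNS2 had 1. Most of these levels lie near the floor, and there is no replicate.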
